A study of Mus musculus with 12 samples.

Results

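Postn, Fn1, Tnc, Spp1, Thbs1, Thbs2, Thbs4, Sparc, Cthrc1 and Acta2 are 10 genes of the matricellular matrix and of activated fibroblasts, and they were taken by gene symbol from a table of 53465 genes measured in 12 mouse hearts. All 10 were found and all 10 passed the filter on low counts, which kept 16101 genes for testing. The hearts formed 4 groups of 3, made of 2 genotypes, A17fl/fl and A17α-MHCKO, each given NS or DOX. Both genotypes hold Adam17 with a floxed exon 2, and in the A17α-MHCKO littermates Cre recombinase driven by the α-MHC promoter removes that exon, so that deletion is directed at cardiomyocytes and other cell types keep the gene. The mice were males on a C57BL/6J background and 8 weeks of age at the first injection. DOX stands for doxorubicin, an anthracycline injected into the peritoneum weekly, 4 times at 5 mg/kg to reach 20 mg/kg, and NS for the same volume of normal saline. Hearts were taken 4 weeks after the last injection and each library is labelled as a sample of its own. Where nothing ties a library to a mouse, the p-values measure only the spread between these libraries. The study asked how doxorubicin acts on the heart and how the loss of ADAM17 in cardiomyocytes, a protease that sheds TNF-α and other membrane proteins, changes this.

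Matricellular proteins are secreted into the matrix but act mainly as signals: they bind integrins, CD44, CD47 and other surface receptors, and they bind growth factors and collagen. In the healthy adult ventricle several of them are kept at a low level, and they are made again in wounds, after infarction and under pressure load, where resting fibroblasts turn into myofibroblasts that contract through smooth muscle α-actin, the product of Acta2. TGF-β, mechanical tension and inflammatory cytokines are known inducers of this state, and macrophages are a second well-known source of osteopontin, the product of Spp1. In whole hearts, fewer cells of a type and less RNA per cell cannot be told apart.

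For 3 of the genes the region before the start of transcription is shown, chosen by their values in the library that governed the results below. Relative to the median of the other 11 libraries, Spp1 and Tnc were raised there the most, and Thbs2 had the lowest ratio of the 10 genes (0.644). RefSeq windows were at hand for 7 of the 10 genes, namely Postn, Tnc, Spp1, Thbs2, Thbs4, Sparc and Acta2, and not for Fn1, Thbs1 and Cthrc1. The 250 bases before the start are written 5′ to 3′ along the gene's strand (build GRCm38.p6), and capitals mark matches, on either strand, to TATAAA, to the RUNX core ACCACA and to the SMAD motif CAGAC, which reads GTCTG on the other strand.
Spp1, chr5:104434861-104435110, plus strand: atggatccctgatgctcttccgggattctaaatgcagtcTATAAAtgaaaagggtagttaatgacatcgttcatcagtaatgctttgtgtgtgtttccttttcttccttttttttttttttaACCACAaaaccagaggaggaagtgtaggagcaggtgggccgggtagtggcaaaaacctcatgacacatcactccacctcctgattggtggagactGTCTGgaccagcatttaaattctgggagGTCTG
Tnc, chr4:64047016-64047265, minus strand: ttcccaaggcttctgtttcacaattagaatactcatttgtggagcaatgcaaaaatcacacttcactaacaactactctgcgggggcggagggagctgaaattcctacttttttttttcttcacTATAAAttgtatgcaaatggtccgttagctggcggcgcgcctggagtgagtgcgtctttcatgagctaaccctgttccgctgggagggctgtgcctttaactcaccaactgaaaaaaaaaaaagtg
Thbs2, chr17:14694263-14694512, minus strand: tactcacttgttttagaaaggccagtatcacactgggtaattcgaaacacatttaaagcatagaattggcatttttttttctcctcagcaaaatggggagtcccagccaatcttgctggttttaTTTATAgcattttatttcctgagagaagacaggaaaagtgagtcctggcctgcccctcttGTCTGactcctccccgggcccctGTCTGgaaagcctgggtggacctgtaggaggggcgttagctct
Each of the 3 windows holds 1 match to TATAAA, at bases -211 to -206 of Spp1, -126 to -121 of Tnc and, on the other strand, -126 to -121 of Thbs2. Among 32851 windows of the same length in the RefSeq table, 12.4% hold such a match. The Spp1 window also holds 1 match to ACCACA (14% of windows) and 2 to CAGAC, and the Thbs2 window holds 2 to CAGAC (42.2% of windows). No match to the AP-1 motif TGANTCA (6.75% of windows) or to the CArG box, the serum response element (1.47%), was found in the 3 windows. The matches do not overlap one another, and they are a description of these letters, not of bound factors.

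The total count per library ran from 15950717 to 21725076, and levels are given as CPM, the counts of a gene relative to the TMM-scaled size of its library. Adam17 itself was at 43.6 to 70.9 CPM in the 6 A17fl/fl hearts and at 27.9 to 36.8 CPM in the 6 A17α-MHCKO hearts, so the genotypes did not overlap. The count of Adam17 includes reads outside exon 2 and reads from cells in which Cre is not active. One library stood apart for most of the 10 genes and has to be described before any comparison. A17fl/fl + NS replicate 1 was the highest of the 12 libraries for 7 of the 10 genes, whereas it was the highest for 26.1% of all tested genes. It lay at least 2-fold over the median of the other 11 libraries for 7 genes (9.61% of tested genes) and at least 10-fold over it for 3 genes (0.795%). By this ratio Spp1 ranked 6, Tnc 15 and Cthrc1 45 among the 16101 tested genes. The comparison of this library with the others has no replicate, so the ratios are descriptions.

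**Figure D1:**
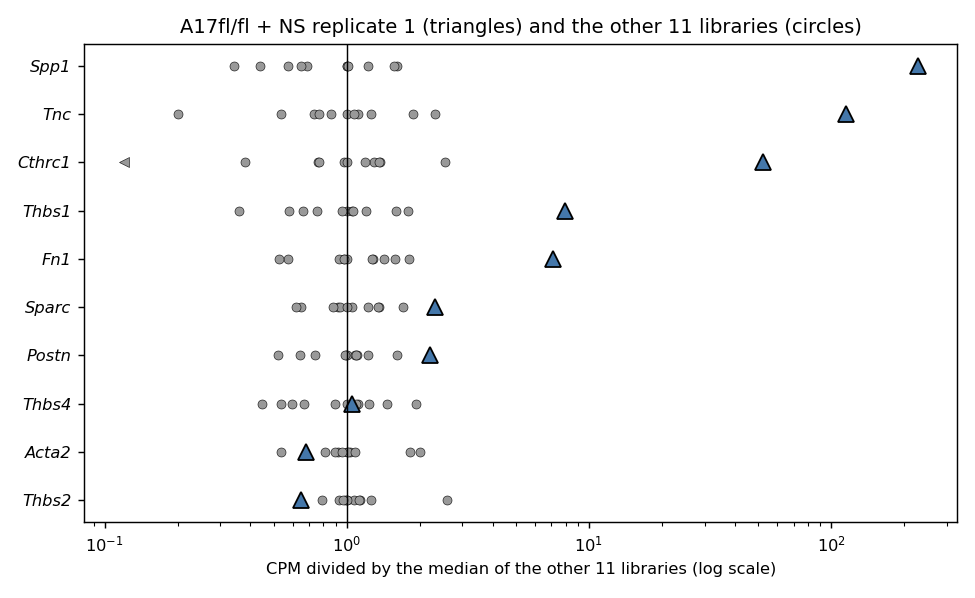
CPM of each gene divided by its median over the 11 libraries other than A17fl/fl + NS replicate 1, on a log axis; triangles are that library, circles the other 11, and the leftward triangle marks a library without a Cthrc1 count. The triangles of Spp1 (228), Tnc (115) and Cthrc1 (52.1) lie far beyond the circles, those of Thbs1 (7.97) and Fn1 (7.10) lie beyond them, and those of Thbs4, Acta2 and Thbs2 do not.

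Markers of other cells moved with this library. All 6 neutrophil genes were highest there, with a summed level of 2318 CPM against 5.39 to 66.5 CPM in the other 11 libraries. Of 9 macrophage genes, 8 were highest there (986 CPM against 380 to 549 CPM), as were 7 of 8 immediate-early genes (1089 against 164 to 292 CPM) and 2 of 5 platelet genes (161 against 19.1 to 64.9 CPM). Cardiomyocyte genes were lowest there in 5 of 6 cases (14560 against 23500 to 39060 CPM), resting fibroblast genes in 4 of 8 (2331 against 3100 to 4490 CPM) and smooth muscle genes in 4 of 6 (171 against 230 to 418.5 CPM). The low fibroblast sum came from Gsn: without this gene it was 1383 CPM, within the 1108 to 1617 CPM of the other libraries. Endothelial genes (1009 CPM) lay within the range of the other libraries, 779 to 1178 CPM, and pericyte genes (833 CPM) just below theirs, 904 to 1677 CPM. The part of these cells in the levels of the 10 genes was not tested.

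A second library of the same group also stood apart, in the opposite direction. A17fl/fl + NS replicate 3 was the lowest of the 12 libraries for 5 of the 10 genes (Tnc, Spp1, Thbs1, Thbs4 and Acta2), the second lowest for 4 and the highest for 1, Thbs2. Of all tested genes it was the lowest for 13.3%, and the lowest or second lowest for 24.4%. Of 5 markers of the atrium, which is not part of the ventricle, 4 (Myl4, Myl7, Sln and Nppa) were lower in replicates 1 and 3 of A17fl/fl + NS than in each other library, and Bmp10 was not. Myl7, the atrial myosin light chain, had no count in replicate 1 and 0.0627 CPM in replicate 3 but 125 to 1019 CPM in the other 10 libraries, and Sln, the atrial sarcolipin, had no count in either but 63.8 to 392 CPM elsewhere. Summed over 5 genes, the atrial level was 1021 CPM in replicate 1, 332.5 CPM in replicate 3 and 1686 to 8361 CPM in the other libraries, although the labels say heart and the study names the left ventricle as its sample. Summed fat genes (0.577 and 0.313 CPM in replicates 1 and 3, and 7.28 to 38.8 CPM elsewhere) separated the same libraries, and so did summed valve and tendon genes (12.4 and 10.5 CPM, and 22.7 to 73.4 CPM elsewhere), while summed mesothelium genes did not (16.4 and 5.76 CPM, and 3.78 to 132 CPM elsewhere). Not each gene of the first 2 lists did so. Lep was at 0 and 0.188 CPM, and 0 to 1.07 CPM elsewhere. Scx was at 11.7 and 8.02 CPM, and 6.58 to 16.1 CPM elsewhere. The part of these tissues in the levels of the 10 genes was not tested. A17fl/fl + NS had the largest SD of CPM of the 4 groups for all 10 genes, as it had for 60.1% of tested genes, and each comparison that holds this group is given with and without replicate 1.

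**Figure D2:**
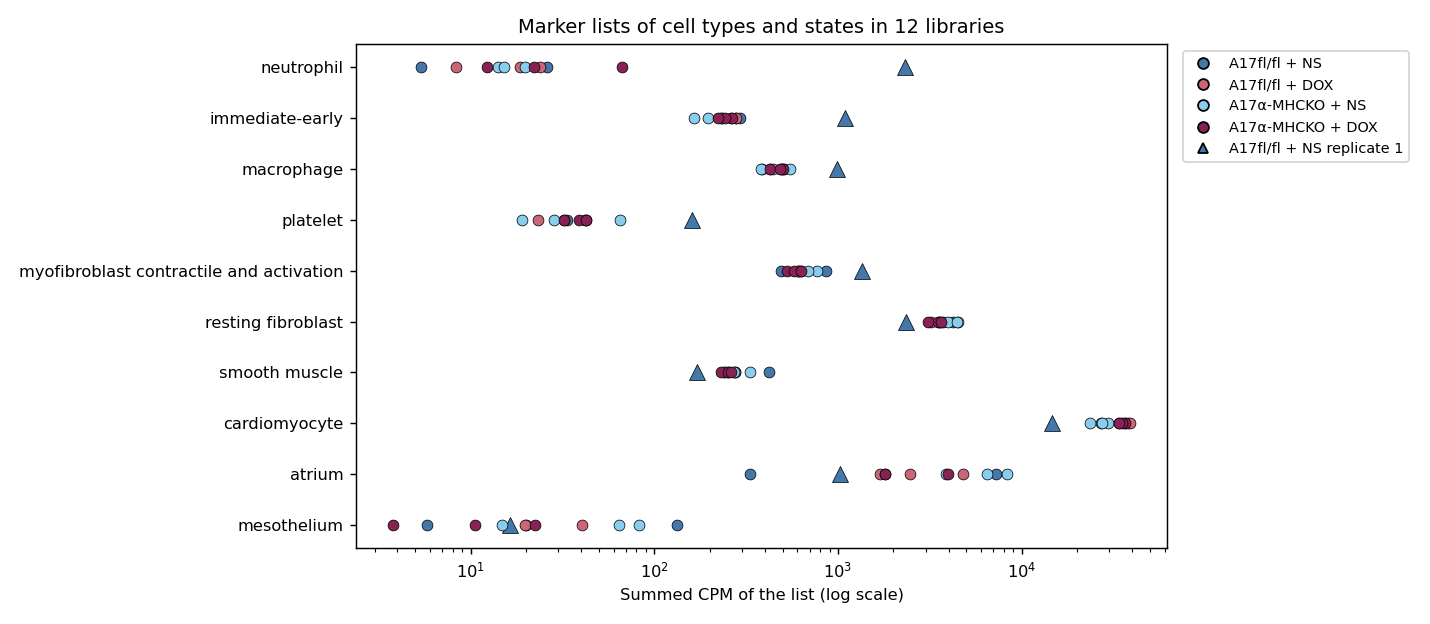
Summed CPM of 10 marker lists in the 12 libraries, on a log axis; colours are the 4 groups and triangles mark A17fl/fl + NS replicate 1. That library is highest for neutrophil (2318 CPM), immediate-early, macrophage, platelet and myofibroblast lists, the last through Lox (742 CPM without it, within 479 to 846 CPM elsewhere), and lowest for cardiomyocyte, smooth muscle and, through Gsn, resting fibroblast lists.

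Tnc, Spp1 and Cthrc1 were the genes closest to silence in 11 hearts. Tnc encodes tenascin-C, an adhesion-modulating glycoprotein of embryonic and wounded tissue (chr4:63959785-64047015, minus strand, GRCm38, overlapped by a processed transcript on the opposite strand). Its level was 359, 3.47 and 0.626 CPM in replicates 1, 2 and 3 of A17fl/fl + NS. It was 3.90, 7.20 and 3.11 CPM in A17fl/fl + DOX, 1.67, 2.68 and 2.27 CPM in A17α-MHCKO + NS, and 2.39, 5.85 and 3.34 CPM in A17α-MHCKO + DOX. Apart from replicate 1 of A17fl/fl + NS, all values lay between 0.626 and 7.20 CPM.

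Spp1 encodes osteopontin, a secreted ligand of integrins and CD44 (chr5:104435118-104441050, plus strand, overlapped by an unconfirmed gene model on the same strand). It stood at 545, 2.93 and 0.814 CPM in A17fl/fl + NS and at 1.63, 2.40 and 3.85 CPM in A17fl/fl + DOX. In A17α-MHCKO hearts it was 1.54, 3.76 and 1.05 CPM after NS and 2.39, 1.36 and 2.43 CPM after DOX. The replicate at 545 CPM held 9443 counts, and no other library held more than 87.

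Cthrc1 encodes a secreted protein of injury-activated fibroblasts (chr15:39076932-39087121, plus strand). It was measured at 25.7, 0.479 and 0.188 CPM in A17fl/fl + NS, 0.377, 0.677 and 0 CPM in A17fl/fl + DOX, 0.494, 1.25 and 0.639 CPM in A17α-MHCKO + NS and 0.378, 0.585 and 0.668 CPM in A17α-MHCKO + DOX. These values rest on 0 to 29 counts outside replicate 1 of A17fl/fl + NS, which held 446. The library without a count, A17fl/fl + DOX replicate 3, allows a level of up to 0.186 CPM, the level of 3 counts, by counting error alone.

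The thrombospondins are calcium-binding matrix proteins that bind integrins and other surface receptors, and thrombospondin-1 is a known activator of latent TGF-β. Thbs1 (chr2:118111876-118127133, plus strand, overlapped by a non-coding gene on the opposite strand) was at 313, 62.6 and 14.1 CPM in A17fl/fl + NS and at 39.3, 41.2 and 70.2 CPM in A17fl/fl + DOX. It was at 22.7, 46.9 and 41.8 CPM in A17α-MHCKO + NS and at 25.8, 29.6 and 37.7 CPM in A17α-MHCKO + DOX. The A17fl/fl + NS hearts thus held both the highest and the lowest of the 12 values.

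Thbs2 (chr17:14665500-14694235, minus strand), which encodes a thrombospondin of fibroblasts that limits new vessel growth, ran against this pattern. In A17fl/fl + NS it was 30.5, 37.4 and 122 CPM, so that replicate 1 was the lowest and replicate 3 the highest of all 12 libraries. The other groups were narrow, at 46.3, 47.3 and 59.7 CPM in A17fl/fl + DOX, 50.8, 47.2 and 53.6 CPM in A17α-MHCKO + NS and 53.3, 43.8 and 45.8 CPM in A17α-MHCKO + DOX. Across the 12 libraries, which share these 2 extreme ones, the Pearson correlation of log2 CPM of Thbs2 with each of the other 9 genes was below 0, from -0.712 with Thbs1 to -0.474 with Acta2. It was below 0 as well across the 11 libraries without replicate 1, which still hold replicate 3, the extreme at 122 CPM.

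Thbs4 (chr13:92751590-92794818, minus strand), a thrombospondin of muscle and tendon matrix that is induced by load on the heart, did not share the rise in replicate 1. Its values were 16.3, 22.7 and 6.95 CPM in A17fl/fl + NS, 15.5, 17.3 and 29.9 CPM in A17fl/fl + DOX, 8.33, 19.1 and 9.24 CPM in A17α-MHCKO + NS and 13.9, 10.3 and 17 CPM in A17α-MHCKO + DOX. All 4 groups overlapped.

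Fn1, Postn and Sparc make proteins that organise collagen and cell adhesion. Fn1 (chr1:71585520-71653200, minus strand, overlapped by an antisense gene) encodes fibronectin, the ligand of integrin α5β1, and was at 672, 135 and 54.0 CPM in A17fl/fl + NS. It was at 121, 92.4 and 120 CPM in A17fl/fl + DOX, 88, 171 and 149 CPM in A17α-MHCKO + NS and 49.8, 94.6 and 91.9 CPM in A17α-MHCKO + DOX. Replicate 1 of A17fl/fl + NS was 3.93-fold over the next highest library.

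Postn (chr3:54361109-54391037, plus strand) encodes periostin, the collagen-binding protein by which activated cardiac fibroblasts are commonly marked. Its level was 179, 99.8 and 52.1 CPM in A17fl/fl + NS, 89.6, 80.7 and 81.4 CPM in A17fl/fl + DOX, 60.1, 131 and 87.7 CPM in A17α-MHCKO + NS and 42.5, 79.9 and 88.4 CPM in A17α-MHCKO + DOX. The spread was small in A17fl/fl + DOX (83.9 ± 4.97 CPM, SD, n = 3) and broad in A17fl/fl + NS (110 ± 64.4 CPM, SD, n = 3).

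Sparc (chr11:55394500-55423183, minus strand) encodes osteonectin, a collagen-binding protein needed for the processing of fibrillar collagen. It was at 1174, 468 and 329 CPM in A17fl/fl + NS, 476, 534 and 508 CPM in A17fl/fl + DOX, 693, 864 and 687 CPM in A17α-MHCKO + NS and 312, 623 and 446 CPM in A17α-MHCKO + DOX. Each A17α-MHCKO + NS heart lay above each A17α-MHCKO + DOX heart.

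Acta2 (chr19:34241090-34255590, minus strand), the smooth muscle α-actin of vessels and of myofibroblasts, was not raised in replicate 1. It was at 103, 276 and 80.9 CPM in A17fl/fl + NS, 151, 156 and 123 CPM in A17fl/fl + DOX, 139, 304 and 153 CPM in A17α-MHCKO + NS and 135, 145 and 163 CPM in A17α-MHCKO + DOX. The 2 hearts at 276 and 304 CPM, the second replicates of both NS groups, also had the highest summed levels of smooth muscle genes (418.5 and 332 CPM, against 171 to 275 CPM elsewhere), and vessel muscle and myofibroblasts were not told apart here.

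**Figure D3:**
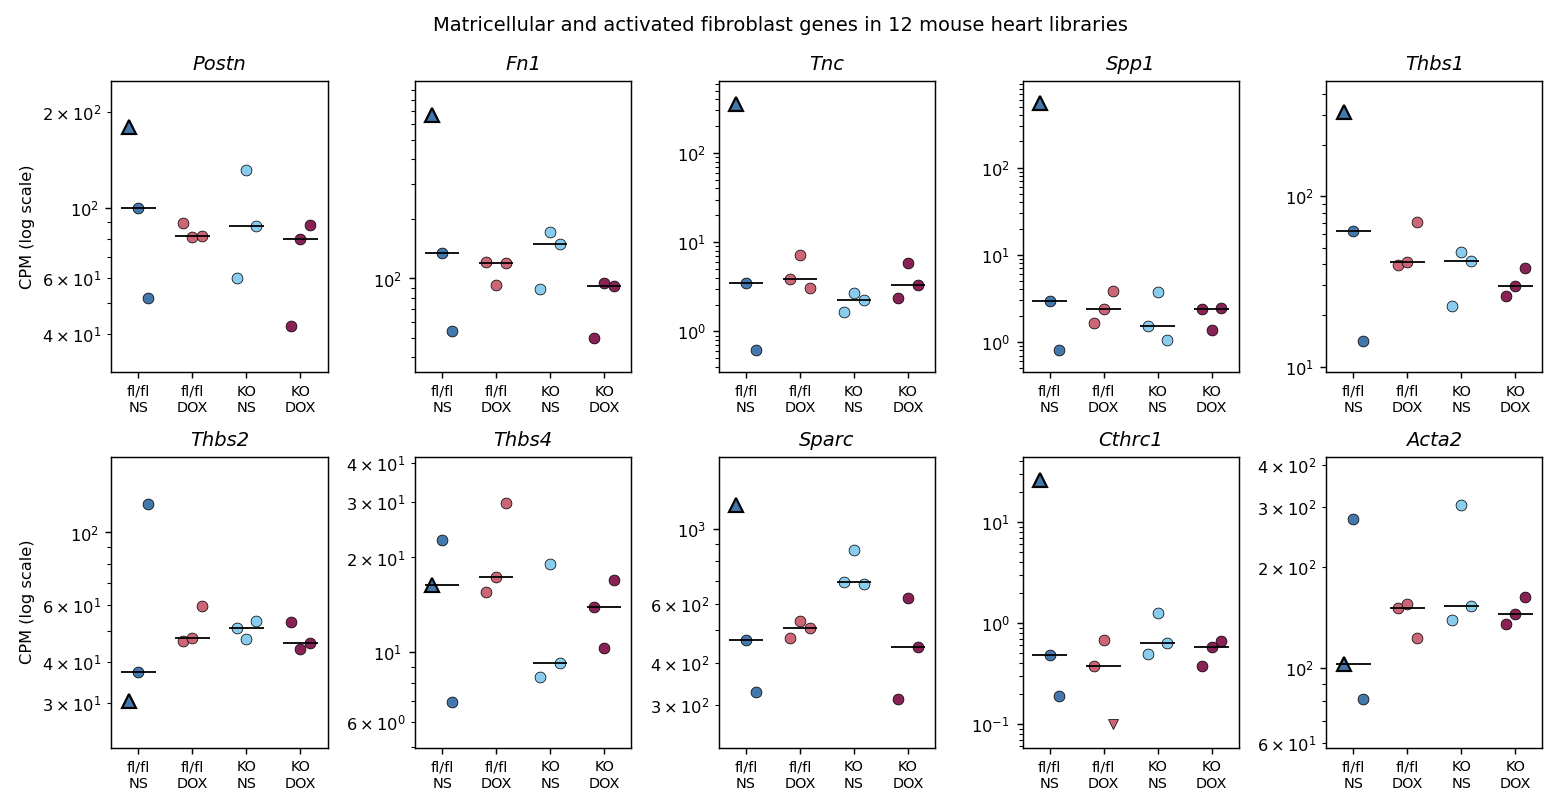
CPM of the 10 genes in the 12 libraries, 1 panel a gene, on log axes; points are single hearts, bars the median of 3 hearts, fl/fl is A17fl/fl, KO is A17α-MHCKO, the large triangle is A17fl/fl + NS replicate 1, and the small downward triangle in the Cthrc1 panel marks a value of 0 drawn at the bottom. The triangle is above all other points in 7 panels, and the remaining 11 points of Tnc and Spp1 reach no more than 7.20 CPM.

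Per length of transcript the genes fell into 3 tiers, given here as FPKM, the fragments of a gene relative to its length and to the size of the library. Over the 11 libraries other than A17fl/fl + NS replicate 1, Sparc (median 97.8, from 57.5 to 176 FPKM) and Acta2 (median 84.4, from 41.5 to 182 FPKM) formed the upper tier, and their ranges overlapped. Thbs2 (8.21 FPKM), Postn (6.77), Thbs1 (6.01), Fn1 (5.12) and Thbs4 (4.26) followed, each within the range of its neighbours. Spp1 (0.431 FPKM), Tnc (0.394) and Cthrc1 (0.211) formed the low tier, with highest values of 0.745, 0.911 and 0.589 FPKM, all under the lowest value of any gene of the middle tier, 1.75 FPKM. In A17fl/fl + NS replicate 1 this order was broken: Spp1, at 107 FPKM, ranked second after Sparc (237 FPKM) and above Acta2 (60.9 FPKM), and Tnc, at 47.8 FPKM, ranked 5 after Thbs1 (50.8 FPKM).

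**Figure D4:**
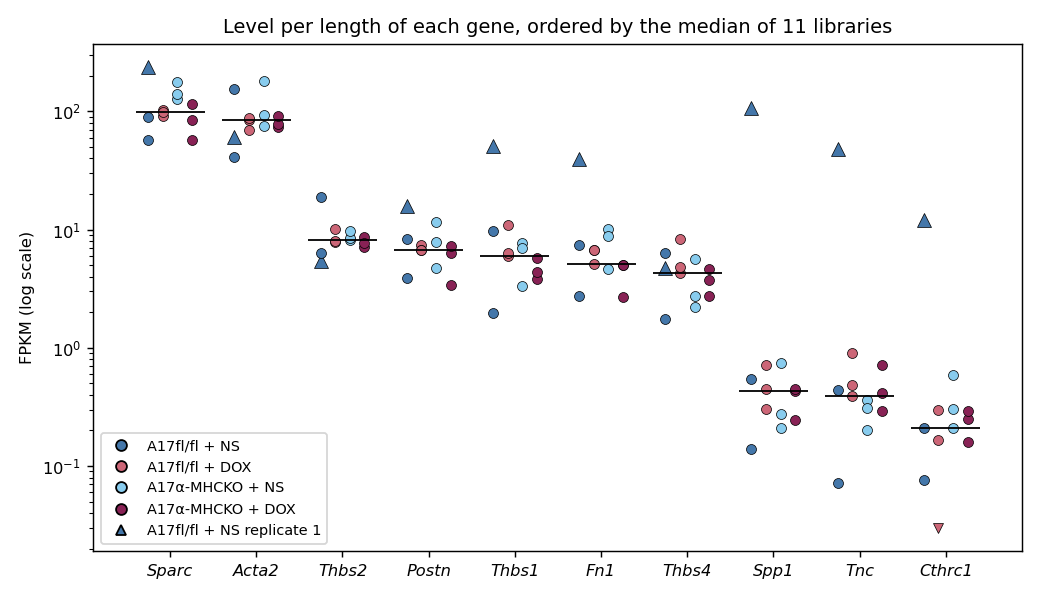
FPKM of each gene in the 12 libraries on a log axis, ordered by the median of 11 libraries (bar); colours are the groups, upward triangles mark A17fl/fl + NS replicate 1, and the downward triangle marks a Cthrc1 value of 0 drawn at the bottom. In that library the 3 genes of the low tier reach 107, 47.8 and 12 FPKM, and the 11 other points stay under 1 FPKM.

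The first comparison asked what doxorubicin did in hearts with intact Adam17. With all 12 libraries, 9 of the 10 genes had a lower fitted level in A17fl/fl + DOX than in A17fl/fl + NS, and 3 met the limits of the study, which ask for a log2 change beyond 1 in either direction, p under 0.05 before adjustment and over 1 FPKM on average in either group. These limits were met by 2.82% of tested genes. The 3 genes, all lower, were Spp1 (log2 fold change -6.12 ± 1.84, SE, adjusted p = 0.358), Tnc (-4.67 ± 1.61, adjusted p = 0.399) and Cthrc1 (-4.62 ± 1.54, adjusted p = 0.385), by edgeR's quasi-likelihood test with Benjamini-Hochberg adjustment over all tested genes. The same 3 had an unadjusted p under 0.05, as did 10.7% of tested genes. They passed the limit of 1 FPKM only through A17fl/fl + NS replicate 1, the 1 library in which they exceeded it. After adjustment none of the 10 passed 0.05, and 0% of tested genes did. DESeq2 with all libraries gave Tnc, Spp1 and Cthrc1 no p in any comparison because of outlying counts (Cook's distance). Of the other 7 genes none passed adjustment here (0.947% of the genes that DESeq2 gave a p) and 1, Fn1, had an unadjusted p under 0.05 (11.4%).

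The CPM of the 2 groups overlapped for all 10 genes (0 of 10 without overlap, against 13.3% of tested genes), and for Spp1, Tnc and Cthrc1 both other A17fl/fl + NS hearts lay below the highest DOX heart. Mean levels in A17fl/fl + NS were 183 ± 314 CPM for Spp1, 121 ± 206 CPM for Tnc and 8.80 ± 14.7 CPM for Cthrc1 (SD, n = 3), so each SD exceeded its mean. The corresponding means in A17fl/fl + DOX were 2.63 ± 1.13, 4.74 ± 2.17 and 0.351 ± 0.339 CPM (SD, n = 3). Two-sided exact permutation tests of these differences gave p = 0.8 for Spp1, 0.9 for Tnc and 0.6 for Cthrc1, where 3 hearts against 3 cannot go below 0.1.

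The directions turned once A17fl/fl + NS replicate 1 was left out. The NS side was then replicate 2 and replicate 3. Replicate 3 was the lowest or second lowest of the 12 libraries for 9 of the 10 genes (24.4% of tested genes). The turned directions therefore rest in part on another extreme heart. Of the 10 genes, 8 then had a higher fitted level after DOX, their median log2 change moved from -0.88 to 0.29, and the median over all tested genes moved from -0.043 to -0.0093. None of the 10 met the study limits (1.24% of tested genes did), none had an unadjusted p under 0.05 (10.2%), and none passed adjustment (0%). Spp1, Tnc and Cthrc1 stayed under 1 FPKM in each of the other 11 libraries. By the study limits they could therefore not be called in any comparison of groups without replicate 1, at any fold change. Tnc went from -4.67 to 1.2 ± 0.61 (SE, adjusted p = 0.534), Spp1 from -6.12 to 0.48 ± 0.62 (adjusted p = 0.817) and Cthrc1 from -4.62 to 0.067 ± 0.95 (adjusted p = 0.988). Sparc was the one gene whose groups then did not overlap, at 468 and 329 CPM after NS and 476 to 534 CPM after DOX, where 28.0% of tested genes had no overlap between 2 hearts and 3. In DESeq2 without that library, Tnc had an unadjusted p under 0.05 (9.98%) and none of the 10 passed adjustment (0.925%).

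For the other genes in A17fl/fl hearts the fitted changes after DOX were smaller. With all libraries Fn1 changed by -1.37 ± 0.69 (SE, adjusted p = 0.501) and Thbs1 by -1.37 ± 0.78 (adjusted p = 0.543). Without replicate 1 these became 0.24 ± 0.39 (adjusted p = 0.861) and 0.39 ± 0.50 (adjusted p = 0.817). Postn went from -0.40 ± 0.42 (adjusted p = 0.755) to 0.14 ± 0.36 (adjusted p = 0.916), and Sparc from -0.38 ± 0.40 (adjusted p = 0.755) to 0.34 ± 0.25 (adjusted p = 0.674). Directions of these 4 genes therefore depended on the 1 library. Without it the NS side was replicate 2 and replicate 3, which often differed. For Postn and Fn1, replicate 2 (99.8 and 135 CPM) lay above each DOX heart, which reached 89.6 and 121 CPM. Replicate 3 (52.1 and 54.0 CPM) lay below each of them. For Thbs1, replicate 2 (62.6 CPM) lay within the DOX values and replicate 3 (14.1 CPM) below them. For Sparc both lay below each DOX heart.

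Thbs4, Thbs2 and Acta2 kept their sign. Thbs4 was at 0.45 ± 0.44 on the log2 scale with all libraries (SE, adjusted p = 0.738) and at 0.49 ± 0.49 without replicate 1 (adjusted p = 0.76). Thbs2 was at -0.31 ± 0.41 (adjusted p = 0.807) and at -0.65 ± 0.35 (adjusted p = 0.557). Acta2 was at -0.10 ± 0.42 (adjusted p = 0.947) and at -0.32 ± 0.43 (adjusted p = 0.823). Leaving out replicate 3 of A17fl/fl + NS in place of replicate 1 gave Thbs2 0.59, and leaving out replicate 2 gave Acta2 0.64, so the sign of both rested on a single heart as well.

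**Figure D5:**
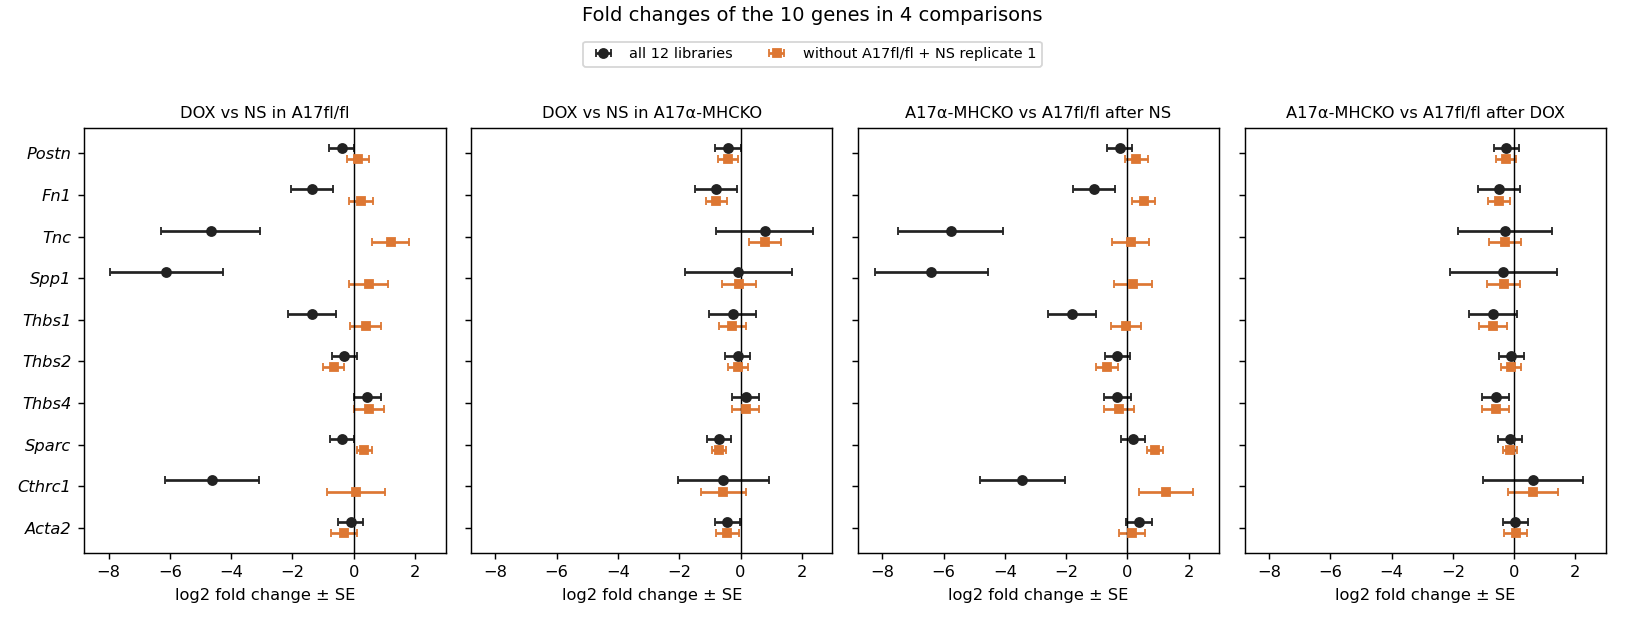
Log2 fold change ± SE of the 10 genes in the 4 comparisons of single groups, with all 12 libraries (circles) and without A17fl/fl + NS replicate 1 (squares). In the 2 comparisons that hold A17fl/fl + NS, Tnc, Spp1 and Cthrc1 move from between -6.39 and -3.43 to values at or above 0.067, while circles and squares coincide in the 2 comparisons that do not hold it.

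The second comparison asked whether loss of ADAM17 in cardiomyocytes altered the doxorubicin-treated heart. After DOX, 8 of the 10 genes had a lower fitted level in A17α-MHCKO than in A17fl/fl hearts. Here and in the other comparisons such counts of directions are descriptions, since genes of the 10 are correlated across libraries (Fn1 with Postn, r = 0.924 over 11 libraries). None met the study limits (0.205% of tested genes did), none had an unadjusted p under 0.05 (2.70%) and none passed adjustment (0.00621%). DESeq2 gave none of its 7 genes with a p an unadjusted p under 0.05 (3.03%). With these 2 groups fitted alone in edgeR, Thbs1 had an unadjusted p under 0.05 (1 of 9 genes, against 7.19% of tested genes) at an adjusted p of 0.673. The values were little changed without A17fl/fl + NS replicate 1, which enters this contrast only through the shared spread: again none met the limits (0.244%), passed the unadjusted threshold (5.85%) or passed adjustment (0.0122%).

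The largest difference here that was not tied to a few counts was in Thbs1, at 50.2 ± 17.3 CPM in A17fl/fl + DOX and 31.0 ± 6.08 CPM in A17α-MHCKO + DOX (SD, n = 3). The 2 groups did not overlap in Thbs1, alone among the 10 genes (14.1% of tested genes did not overlap). Its log2 fold change was -0.69 ± 0.77 (SE, adjusted p = 1) and the exact permutation p was 0.1, the smallest possible. Thbs4 followed at -0.60 ± 0.44 (adjusted p = 1) and Fn1 at -0.50 ± 0.68 (adjusted p = 1). Both overlapped between the groups.

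The remaining genes differed by less. Spp1 was at -0.35 ± 1.75 (SE), Tnc at -0.30 ± 1.52, Postn at -0.26 ± 0.42, Sparc at -0.14 ± 0.39 and Thbs2 at -0.10 ± 0.41 on the log2 scale. Acta2 was at 0.044 ± 0.42 and Cthrc1 at 0.62 ± 1.64. All 7 had an adjusted p of 1. Without A17fl/fl + NS replicate 1 the standard errors of Spp1, Tnc and Cthrc1 fell to 0.55, 0.51 and 0.81, and their changes of -0.35, -0.30 and 0.62 were within 1 SE of 0.

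After saline, the knockout was compared with its floxed control. With all libraries, 8 of the 10 genes had a lower fitted level in A17α-MHCKO + NS and 4 met the study limits (2.99% of tested genes), all lower: Spp1 (-6.39 ± 1.86, SE, adjusted p = 0.317), Tnc (-5.76 ± 1.71, adjusted p = 0.323), Cthrc1 (-3.43 ± 1.39, adjusted p = 0.437) and Thbs1 (-1.80 ± 0.79, adjusted p = 0.472). The same 4 passed the unadjusted threshold (10.1%), and none passed adjustment (0.0186%). In DESeq2, 1 of 7 genes, Thbs1, had an unadjusted p under 0.05 (10.7%). Groups overlapped for all 10 genes (10.9% of tested genes did not). With that library left out, the floxed side was replicate 2 and replicate 3, the latter low for most of the 10 genes. None met the limits (1.55%) in that fit, where Spp1, Tnc and Cthrc1 lay under the FPKM limit, and 7 of the 10 had a higher fitted level in the knockout. Spp1 then stood at 0.19 ± 0.62, Tnc at 0.11 ± 0.61, Cthrc1 at 1.25 ± 0.89 and Thbs1 at -0.043 ± 0.50. This comparison and the first share the A17fl/fl + NS hearts.

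Sparc was the 1 gene with an unadjusted p under 0.05 between the saline groups once that library was left out (10.2% of tested genes). It was higher in the knockout by 0.91 ± 0.26 on the log2 scale (SE, adjusted p = 0.243 in edgeR), with 748 ± 100 CPM in A17α-MHCKO + NS (SD, n = 3) against 468 and 329 CPM. None of the 10 passed adjustment in edgeR (0.0670%), whereas in DESeq2 without that library Sparc had an adjusted p of 0.034, a threshold of 0.05 that 1.59% of genes passed there. With all libraries Sparc differed by 0.19 ± 0.39 (adjusted p = 0.916). Sparc and Cthrc1 were the genes whose saline groups did not overlap without replicate 1 (2 of 10, against 25.1% of tested genes). For Cthrc1 the nearest hearts, A17α-MHCKO + NS replicate 1 and A17fl/fl + NS replicate 2, each held 8 counts, at 0.494 and 0.479 CPM. Their order came from the scaling by library size alone.

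In A17α-MHCKO hearts, doxorubicin was compared with saline in 2 groups that hold neither extreme library. With all libraries in the fit, 8 of the 10 genes had a lower fitted level after DOX, none met the study limits (0.658% of tested genes), none had an unadjusted p under 0.05 (6.42%) and none passed adjustment (0%). DESeq2 gave none of its 7 genes with a p an unadjusted p under 0.05 (7.12%). Sparc did not overlap, at 687 to 864 CPM after NS and 312 to 623 CPM after DOX, as 1 of 10 genes against 16.9% of tested genes (two-sided exact permutation p = 0.1, the smallest possible). Its log2 difference was -0.70 ± 0.40 (SE, adjusted p = 0.82) with the spread of all libraries. With the spread of 11 libraries it was -0.70 ± 0.22 (adjusted p = 0.328), and Fn1 was at -0.79 ± 0.35 (adjusted p = 0.428). These were the 2 genes of 10 with an unadjusted p under 0.05 there (11.5% of tested genes), and DESeq2 without that library gave the same 2 (11.1%). With the 2 groups fitted alone in edgeR they were under 0.05 as well (10.8%), at adjusted p-values of 0.377 and above. None met the study limits (0.878%) or passed adjustment (0.00610%).

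Fn1 was at 136 ± 42.9 CPM after NS and 78.8 ± 25.1 CPM after DOX in A17α-MHCKO hearts (SD, n = 3), and the groups overlapped. A17α-MHCKO + DOX replicate 1 was the lowest of all 12 libraries for Fn1, Postn and Sparc, at 49.8, 42.5 and 312 CPM.

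The interaction asked whether the change after doxorubicin differed between the genotypes. With all libraries 2 of 10 genes had an unadjusted p under 0.05 (5.99% of tested genes) and none passed adjustment (0%). They were Tnc (5.46 ± 2.20, SE, adjusted p = 0.828) and Spp1 (6.05 ± 2.45, adjusted p = 0.828), both with the lower fitted level after DOX in A17fl/fl hearts. DESeq2 gave 0 of its 7 genes with a p an unadjusted p under 0.05 (6.47%). Leaving out A17fl/fl + NS replicate 1 gave -0.40 ± 0.80 and -0.54 ± 0.83, and Sparc was the 1 gene under 0.05 (7.13%), at -1.04 ± 0.34 (adjusted p = 0.55), none passing adjustment (0%). In DESeq2 without that library, Fn1 and Sparc had an unadjusted p under 0.05 (6.94%). Sparc was then higher after DOX by 0.34 in A17fl/fl hearts and at -0.70 in A17α-MHCKO hearts.

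Averaged over both genotypes, 6 DOX hearts were set against 6 NS hearts. Fn1 (-1.08 ± 0.48, SE, adjusted p = 0.465), Spp1 (-3.09 ± 1.22, adjusted p = 0.42) and Cthrc1 (-2.59 ± 1.06, adjusted p = 0.435) met the study limits with all libraries, 3 of 10 against 0.708% of tested genes, and they were also those with an unadjusted p under 0.05 (10.7%). None passed adjustment (0%). Exact permutation p-values were 0.145 for Fn1, 0.706 for Spp1 and 0.232 for Cthrc1, where 0.00216 is the smallest that 6 against 6 can give. With 11 libraries no gene met the limits (0.512%), and Tnc alone had an unadjusted p under 0.05 (15.0%): it was higher after DOX by 0.998 ± 0.40 (adjusted p = 0.294), and none passed adjustment (0.0183%). In DESeq2, 1 of 7 genes, Fn1, had an unadjusted p under 0.05 with all libraries (1912 of 15945 genes) and 1 of 10, Tnc, without that library (14.7%).

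Averaged over both treatments, Tnc (-3.03 ± 1.11, SE, adjusted p = 0.736), Spp1 (-3.37 ± 1.23, adjusted p = 0.736) and Thbs1 (-1.25 ± 0.55, adjusted p = 0.743) were lower in A17α-MHCKO hearts and met the study limits, 3 of 10 against 0.776% of tested genes. The same 3 had an unadjusted p under 0.05 (6.65%), and none passed adjustment (0.0248%). Exact permutation p-values were 0.299 for Tnc, 0.351 for Spp1 and 0.139 for Thbs1. With 11 libraries no gene met the limits (0.311%), Sparc alone had an unadjusted p under 0.05 (10.3%) with 0.39 ± 0.17 higher in the knockout (adjusted p = 0.476), and none passed adjustment (0.0183%). In DESeq2, 1 of 7 genes, Thbs1, had an unadjusted p under 0.05 with all libraries (7.40%) and 1 of 10, Sparc, without that library (1642 of 16394 genes).

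The genes around these 10 were counted in 4 lists. Of 20 tested genes of TGF-β signaling, 1 had an unadjusted p under 0.05 between DOX and NS in A17α-MHCKO hearts with all libraries (6.42% of tested genes), Tgfb3, which encodes a TGF-β ligand and was lower after DOX (-0.56 ± 0.25, SE, adjusted p = 0.777 in edgeR over all tested genes). Without A17fl/fl + NS replicate 1, 1 of the 20 was higher and 3 were lower after DOX in these hearts at that threshold (11.5% of tested genes). In A17fl/fl hearts 2 of the 20 were under it with all libraries, both lower after DOX (10.7%). Smad7, an inhibitor of TGF-β signaling, was 1 of them (-0.72 ± 0.26, adjusted p = 0.414). It had no unadjusted p under 0.05 without A17fl/fl + NS replicate 1, where 1 of the 20 did, lower after DOX (10.2%). After DOX, 2 of the 20 genes with all libraries (Ski and Smad3, against 2.70% of tested genes) and 3 without that library (Ski, Smad3 and Ltbp4, against 5.85%) had an unadjusted p under 0.05 between the genotypes, all lower in the knockout, at -0.43 to -0.36 on the log2 scale. The median of the list in that comparison was -0.15, beside 0.0067 over all tested genes.

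Of 15 tested receptors of matricellular proteins, 5 were lower after DOX in A17fl/fl hearts at an unadjusted p under 0.05 with all libraries (10.7% of tested genes, in either direction), among them Itgb3 (-1.72 ± 0.73, SE, adjusted p = 0.443) and Cd44 (-1.75 ± 0.74, adjusted p = 0.445), which bind osteopontin. Both were highest in A17fl/fl + NS replicate 1, at 60.3 and 158 CPM. With 11 libraries 1 other receptor, Itga8, was under 0.05, where 10.2% of tested genes were (-1.47 ± 0.56). Its level was 35.1 CPM in A17fl/fl + NS replicate 2, but 8.14 CPM in replicate 3, within the DOX values of 5.53 to 8.99 CPM. Replicate 1, which was left out, held the lowest of the 12 values, 2.14 CPM. Between the genotypes after DOX, Lrp1, the endocytic receptor that clears thrombospondins, was lower in the knockout, at -0.46 ± 0.20 with all libraries (1 of 15, against 2.70% of tested genes, adjusted p = 1), and without the library Itga11, the collagen-binding integrin chain of fibroblasts, was under 0.05 as well (5.85% of tested genes), at -0.51 ± 0.22. In A17α-MHCKO hearts Itga11 was lower after DOX, at -0.77 ± 0.25. Between DOX and NS in these hearts, 1 of the 15 receptors had an unadjusted p under 0.05 with all libraries (6.42% of tested genes). Without A17fl/fl + NS replicate 1, 2 of the 15 did (11.5%), both lower after DOX.

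Of the other matricellular genes, 12 were tested with all libraries and 13 without A17fl/fl + NS replicate 1. Ecm1 was the 1 gene under an unadjusted 0.05 after DOX in A17fl/fl hearts (-0.79 ± 0.32, SE, against 10.7% of tested genes), and without the library none was. In A17α-MHCKO hearts Fbln5, a fibulin of elastic fibres, was lower after DOX (-0.45 ± 0.20, against 6.42%), and without the library Fbln1 and Fbln7 were as well (11.5%), at -0.67 ± 0.24 and -0.996 ± 0.42. Between the genotypes after DOX, 0 of the genes had an unadjusted p under 0.05 in either fit.

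Of 12 tested genes of myofibroblast contraction and activation, Lox, the lysyl oxidase that cross-links collagen, was the 1 under an unadjusted 0.05 after DOX in A17fl/fl hearts (-4.01 ± 1.22, SE, against 10.7% of tested genes). It followed Spp1 and Tnc, at 608 CPM in A17fl/fl + NS replicate 1 and 11.3 to 20.5 CPM in the other 11 libraries. Without that library Meox1, a transcription factor of activated fibroblasts, was higher after DOX (1.15 ± 0.33, adjusted p = 0.309) and Tagln, a contractile partner of actin, lower (-0.77 ± 0.31, adjusted p = 0.451). Smooth muscle Myh11 (-0.90 ± 0.22) and Lmod1 (-1.08 ± 0.24), 2 of 6 listed genes, were lower in the same fit, in which 10.2% of tested genes were under 0.05. With all libraries 1 of the 6 was under 0.05, lower after DOX (10.7%). The library left out held the lowest Myh11 and Lmod1 of the 12, 32.8 and 6.06 CPM. Each A17fl/fl + DOX heart lay above it, at 61.2 to 90.8 and 6.71 to 7.36 CPM. Its Tagln, 51.6 CPM, lay within the DOX values of 51.2 to 75.8 CPM. Between the genotypes after DOX none of the 12 had an unadjusted p under 0.05 in either fit, and Fap, a surface protease of activated fibroblasts, ran from 2.62 to 5.23 CPM over all 12 hearts.

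The genes most like Postn were taken by the Pearson correlation of log2 CPM, as a description over libraries that share depth and composition. Among 14459 genes over 12 libraries they were Tmem263 (r = 0.961), Ganab (0.957), Col16a1 (0.942), Chst12 (0.939) and Fstl1 (0.934). Over 11 libraries, among 14402 genes, they were Lrrn2 (0.952), Igsf9b (0.945), Tmem263 (0.94), Mmrn2 (0.939) and Ganab (0.93). Within the 10 genes, Fn1 and Postn were most alike over 11 libraries (r = 0.924, and 0.922 over 12), followed by Spp1 with Thbs4 (0.917) and Thbs1 with Thbs4 (0.87). The correlation of Tnc with Spp1 was 0.936 over 12 libraries and 0.459 over 11, and that of Spp1 with Cthrc1 0.843 and -0.0256, so these pairs were alike through 1 library.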

How the data were processed

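RNA of 12 hearts was sequenced by the authors as stranded paired-end mRNA libraries. Per the labels' processing notes, CASAVA 1.8, HISAT2, SAMtools 1.3.1 and edgeR were used with build GRCm39, and the methods name StringTie for counting; the annotation release and the strand setting of the counting are not given in the sources used here, so genes that overlap a member can share fragments with it. The authors deposited unnormalized whole-number counts and FPKM, scaled by gene length and library size. Counts were tested in R 4.3.3 with edgeR 4.0.16 (filterByExpr, TMM, 4 group means, glmQLFit and glmQLFTest, Benjamini-Hochberg over all tested genes), and FPKM served for levels and for the study's expression limit. Each standard error was obtained from the fold change and the F statistic, as |log2 fold change|/√F. Exact permutation tests were two-sided. DESeq2 1.42.0, RLE scaling, no filter, a minimum of 10 counts in every library, 2 groups fitted alone, a replicate block and each library left out were alternatives, and DESeq2 without A17fl/fl + NS replicate 1 was chosen after seeing the data. The test was also run on simulated data with a shared mean profile, a common spread for all genes and no outlying library. That setting differs from these hearts, so the run cannot vouch for calls that rest on 1 library. The 10 genes, the 17 gene lists and the rule for naming genes were chosen with earlier results of these data known. All 10 genes were named with every library's value, list genes only with an unadjusted p under 0.05 (at most 4 per list and comparison), and the 5 genes most like Postn by correlation; Fap, Myl7, Sln and the smooth muscle genes were named after their values were seen. Positions come from GENCODE M21 (GRCm38), which holds 53274 of the 53465 identifiers, and promoter windows from RefSeq (GRCm38.p6), both differing in build from the authors' notes. The values of 1 list gene are not reported here.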

Additional observations from a re-analysis of the deposited data

How the results depend on the processing

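The counts of the 10 genes called with all libraries were 3 (DOX against NS in A17fl/fl), 4 (genotype after NS), 2 (interaction), 3 (DOX averaged) and 3 (genotype averaged), and 0 in the other comparisons under every alternative run (called means the limits of the study, and an unadjusted p under 0.05 for the interaction). With single libraries left out they ranged from 0 to 5, 0 to 5, 0 to 5, 0 to 5 and 0 to 4 in that order. Without A17fl/fl + NS replicate 1 they were 0, 0, 1, 0 and 0, without replicate 3 of that group 5 for DOX in A17fl/fl, the interaction and DOX averaged, and without replicate 2 of it 4 in the interaction. The interaction was at 0 or 1 without any 1 of the other 9 libraries, genotype after NS at 2 without any 1 A17α-MHCKO + NS library, and DOX averaged at 0 or 1 without any 1 DOX library or A17α-MHCKO + NS replicate 2. DESeq2 called 1, 1, 0, 1 and 1, since Tnc, Spp1 and Cthrc1 had no p there, and without A17fl/fl + NS replicate 1 it called 0, 0, 2, 0 and 0. Outside the interaction, the FPKM limit kept Tnc, Spp1 and Cthrc1 from being called in any fit without that library. Fitting 2 groups alone called 1 (DOX in A17fl/fl) and 2 (genotype after NS). RLE scaling and both filters left each count within 1.5 times, and the minimum of 10 counts gave no value for Cthrc1. Without A17fl/fl + NS replicate 2, Tnc and Spp1 had an adjusted p under 0.05 between the genotypes after NS in edgeR (smallest 0.0361). The floxed side was then replicate 3 and replicate 1, the latter at 359 and 545 CPM for these genes. Apart from the fit without replicate 1, the share of all tested genes called was not counted for fits with 1 library left out. The replicate block called 0 in each of the 5 and turned Acta2 in the first comparison to 0.072, but the numbers share only a label: of 18 same-numbered pairs 3 had a correlation of deviations over 0.1 (from -0.104 to 0.219).

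Log2 changes of the genes followed in each comparison that turned sign with 1 library left out ranged, for DOX in A17fl/fl, from -0.74 to 0.14 (Postn), -1.86 to 0.24 (Fn1), -5.25 to 1.2 (Tnc), -6.70 to 0.48 (Spp1), -1.90 to 0.39 (Thbs1), -0.65 to 0.59 (Thbs2), -0.70 to 0.34 (Sparc), -5.49 to 0.067 (Cthrc1) and -0.40 to 0.64 (Acta2). For genotype after NS they ranged from -6.34 to 0.11 (Tnc), -7.11 to 0.19 (Spp1), -4.00 to 1.25 (Cthrc1) and -0.13 to 0.91 (Sparc). For genotype after DOX they ranged from -0.45 to 0.0056 (Postn), -0.72 to 0.14 (Tnc), -0.59 to 0.029 (Spp1), -0.19 to 0.020 (Thbs2), -0.42 to 0.080 (Sparc) and -0.059 to 0.11 (Acta2). The interaction ranged from -0.40 to 6.05 (Tnc) and -0.54 to 6.76 (Spp1), DOX averaged from -2.23 to 0.998 (Tnc) and -3.39 to 0.21 (Spp1), and genotype averaged from -0.13 to 0.39 (Sparc). Without A17fl/fl + NS replicate 1 the sign also turned for Postn (0.29) and Fn1 (0.53) in genotype after NS, for Fn1 (-1.02), Thbs1 (-0.65) and Cthrc1 (-0.63) in the interaction, for Thbs1 (0.063) in DOX averaged and for Postn (0.019), Fn1 (0.016) and Cthrc1 (0.94) in genotype averaged. DESeq2 without A17fl/fl + NS replicate 1 gave, for DOX in A17fl/fl, 0.13 (Postn), 0.23 (Fn1), 1.2 (Tnc), 0.48 (Spp1), 0.38 (Thbs1), 0.34 (Sparc) and 0.063 (Cthrc1), for genotype after NS 0.10 (Tnc), 0.18 (Spp1) and 1.26 (Cthrc1), for the interaction -0.40 (Tnc) and -0.53 (Spp1), and for DOX averaged 0.997 (Tnc) and 0.21 (Spp1).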
